A study of Saccharomyces cerevisiae with 12 samples.

Results

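The genes for the use of allantoin and urea in budding yeast were followed across cultures limited by 4 carbon sources, all on a medium whose nitrogen source is ammonium. The list holds 9 genes: DAL1, DAL2, DAL3, DAL4, DAL5, DAL7, DAL80, DUR1,2 and DUR3. Members were found by gene symbol in the platform annotation, which gave 10 probe sets for 8 of the genes, out of 9275 probe sets in all. DUR1,2, which encodes urea amidolyase, had no probe set under its name in that annotation and is not analysed here. All 8 other genes had a probe set bright enough to be tested, among 7176 tested probe sets covering 5325 genes.

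Allantoin is a store of nitrogen that Saccharomyces cerevisiae can take up and break down to urea and glyoxylate, and urea is then split to ammonia and carbon dioxide. While a preferred nitrogen source such as ammonium is plentiful, nitrogen catabolite repression keeps these genes low: Ure2 holds the GATA activators Gln3 and Gat1 in the cytoplasm, and the GATA repressors Dal80 and Gzf3 compete for their sites. Full expression of several DAL and DUR genes also needs the inducer allophanate, an intermediate of urea breakdown, which acts through Dal81 and Dal82. Low levels on ammonium are therefore the textbook state of this pathway.

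Polyadenylated RNA was hybridised to Affymetrix Yeast Genome S98 arrays, 1 array for each of 12 aerobic steady-state chemostat cultures, grown at 30 °C and pH 5.0 with the dilution rate set to 0.10 per hour. A chemostat fixes the growth rate, and the carbon source in the feed was the limiting nutrient: glucose, maltose, ethanol or acetate, with 3 cultures each. Labels of the maltose, ethanol and acetate arrays name the MATa wild-type strain CEN.PK113-7D, and those of the glucose arrays name no strain. Carbon was recorded at 256 mmol per litre for the maltose, ethanol and acetate cultures, and no value was found for glucose. The glucose arrays carry a protocol text of their own, so differences in handling and the glucose feed cannot be told apart. No label says more of the nitrogen supply than that requirements other than carbon were in excess. Ethanol and acetate, which have carbon skeletons of 2 atoms, are called C2 compounds below, and glucose and maltose are called sugars.

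Median signals were 41.7 to 48.4 on 11 arrays and 22.8 on maltose array 2. RNA quality was read from actin, as the signal of its 3′ control probe set over that of its 5′ one, which was 9.27 to 13.98 on arrays 2 and 3 of ethanol and of acetate and at most 3.31 on the other 8 arrays. The brightest probe set reached 3732 and 3765 on glucose arrays 1 and 3 and 7331 or more on the other 10 arrays. MAL11, a maltose permease gene, had a mean signal of 3458 in cultures labelled maltose and at most 494 in the other groups. Values below are deposited linear signals; a log2 difference is between group means of log2 signals with a floor of 12, from a limma fit over all arrays, with p adjusted by the Benjamini-Hochberg method over all 7176 probe sets. A gene is called when that adjusted p is under 0.05. No level of one probe set is set against that of another. Signals of whole cultures cannot tell fewer expressing cells from less RNA per cell.

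Transcripts for uptake and for the steps that release urea from allantoate were higher on the C2 compounds than on the sugars. Of the 8 measured genes 5 rose in the contrast of both C2 sources with both sugars: DUR3, DAL2, DAL5, DAL3 and DAL4. None was called lower. The rises ran from 2.69-fold for DUR3 to 1.57-fold for DAL4. In the same contrast 11.4% of all tested probe sets were called higher and 17.1% in either direction. The median log2 difference of the 8 genes was 0.72, against 0.12 over all tested probe sets, and their differences lay above 0 in 8 of 8 cases, against 62% of all probe sets. By single pairs, ethanol gave 3 calls against glucose and 3 against maltose, with 1.66% and 4.24% of all probe sets called higher. Acetate gave 0 against glucose and 1 against maltose, with 3.47% and 7.82% called higher.

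**Figure D1:**
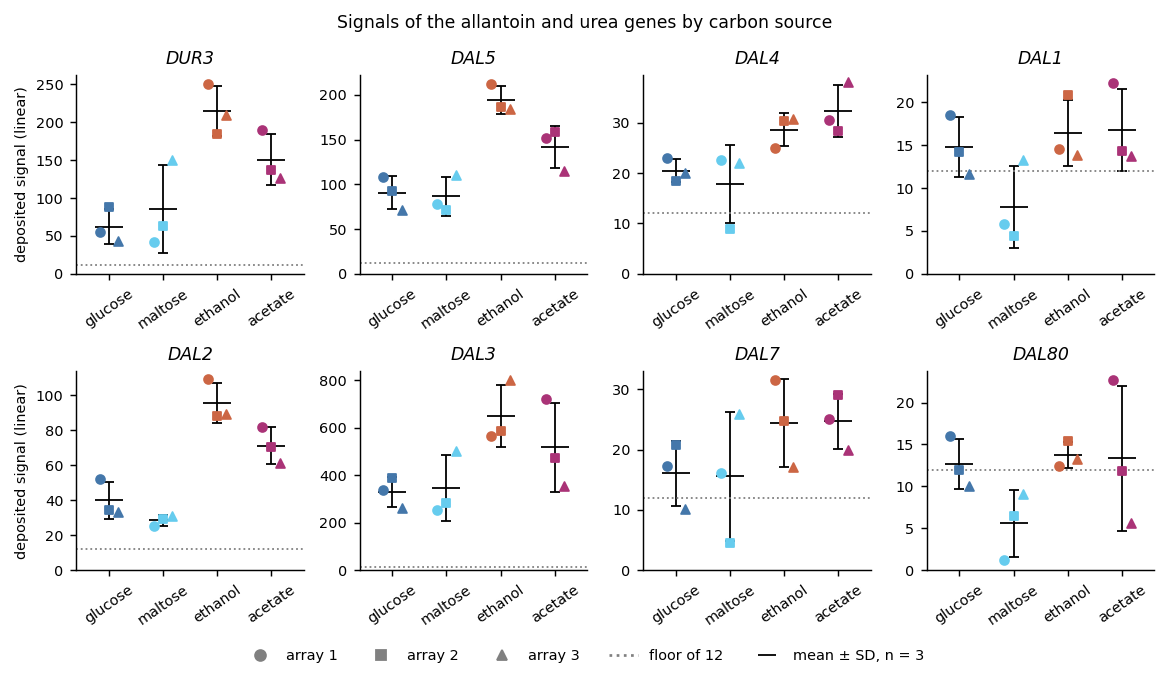
Deposited linear signal (y axis, from 0) of each measured gene on every array, by carbon source (x axis). Marker shapes give the array number, black bars the mean ± SD of 3 arrays, and the dotted line the floor of 12. All C2 arrays lie above all sugar arrays for DAL2, DAL4 and DAL5, while maltose array 3 reaches the C2 range for DUR3 and DAL3.

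Among the transporters, DUR3 encodes the plasma membrane permease for urea, which also carries polyamines. Its signals were 55.1, 87.7 and 43.0 on the glucose arrays and 41.9, 63.6 and 150.7 on the maltose arrays. They were 251.0, 185.0 and 209.1 on the ethanol arrays and 189.5, 136.4 and 126.4 on the acetate arrays. All ethanol arrays lay above every sugar array. Maltose array 3 lay above 2 of the acetate arrays, so the C2 and sugar groups overlapped. The log2 difference between C2 compounds and sugars was 1.43 ± 0.28 (SE, 6 arrays against 6, limma adjusted p = 0.00307). Leaving out any 1 of the 12 arrays kept it between 1.22 and 1.69, called in all 12 cases, with the highest value without maltose array 3.

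DAL5 encodes the permease for allantoate and ureidosuccinate, and in the literature on this pathway its expression does not depend on the inducer. Its brightest probe set read 107.7, 92.9 and 71.8 on glucose, 77.9, 70.8 and 110.9 on maltose, 212.6, 186.6 and 184.6 on ethanol, and 151.3, 158.2 and 114.9 on acetate. Groups did not overlap: the lowest C2 array, acetate 3, stood at 114.9 and the highest sugar array, maltose 3, at 110.9. DAL5 rose 1.89-fold (log2 0.92 ± 0.18, limma adjusted p = 0.00335). The annotation assigns DAL5 to 2 further probe sets. One of them was at most 10.3 on every array and was not tested, and the other read between 6.4 and 27.8, with no call (log2 -0.13 ± 0.25, limma adjusted p = 0.752). The rise of DAL5 thus rests on 1 of its 3 probe sets.

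DAL4, the allantoin permease gene, was dim throughout. It read 22.9, 18.4 and 20.1 on glucose, 22.6, 8.9 and 22.0 on maltose, 24.9, 30.3 and 30.7 on ethanol, and 30.5, 28.3 and 38.1 on acetate. Every C2 array lay above every sugar array, though by little, and maltose array 2 was under the floor. The log2 difference of 0.65 ± 0.20 passed (limma adjusted p = 0.0388), and the call ended on leaving out any 1 of 7 arrays (any glucose array, ethanol 2 or 3, acetate 2 or 3; limma adjusted p up to 0.0966). FUR4 and FUI1, genes of the related uracil and uridine permeases, were not called (log2 0.19 ± 0.31 and 0.17 ± 0.25). Groups were free of overlap in this way for 3 of the 8 genes, DAL2, DAL4 and DAL5, against 5.76% of all tested probe sets.

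The breakdown enzymes were measured from allantoin down to glyoxylate. DAL1 encodes allantoinase, which opens the ring of allantoin to give allantoate. It stayed between 4.4 and 22.3 over the 12 arrays, with 3 arrays at or under the floor, glucose 3 and maltose 1 and 2. No difference was called for DAL1 (log2 0.27 ± 0.17, 95% interval -0.09 to 0.63, limma adjusted p = 0.282). At this brightness a small change of DAL1 was not detectable.

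DAL2 encodes allantoicase, which releases urea from allantoate. It read 52.2, 34.3 and 33.1 on glucose and 25.2, 29.2 and 30.9 on maltose. On ethanol it read 108.9, 88.3 and 89.4, and on acetate 82.0, 70.1 and 61.2. The groups of C2 and sugar arrays stood clear of each other, with 61.2 as the lowest C2 signal and 52.2 as the highest sugar signal. DAL2 rose 2.47-fold (log2 1.30 ± 0.22, limma adjusted p = 0.000884). Among the 8 genes it was the only one called in acetate cultures against maltose cultures and the only one called by the F test when the 3′/5′ ratio entered the model.

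DAL3 encodes ureidoglycolate lyase, which releases the remaining urea and leaves glyoxylate. Its signals were 337.7, 387.9 and 261.2 on glucose, 252.0, 282.3 and 503.8 on maltose, 564.2, 587.2 and 799.3 on ethanol, and 721.6, 471.5 and 356.4 on acetate. The groups overlapped: maltose array 3 lay above acetate arrays 2 and 3, and glucose array 2 lay above acetate array 3. DAL3 rose 1.72-fold (log2 0.79 ± 0.20, limma adjusted p = 0.0155), a call that held without any 1 array, with an adjusted p of 0.049 at the highest. It ended with no filter on dim probe sets (limma adjusted p = 0.072) and in the settings on RNA quality, code letter and glucose arrays given further on.

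DAL7 encodes a malate synthase regulated with the allantoin genes, which can join the glyoxylate from allantoin with acetyl-CoA. It read 17.3, 20.8 and 10.2 on glucose, 16.2, 4.6 and 25.9 on maltose, 31.6, 24.7 and 17.1 on ethanol, and 25.1, 29.1 and 20.0 on acetate. Groups overlapped and no difference was called (log2 0.53 ± 0.23, 95% interval 0.04 to 1.01, limma adjusted p = 0.125). Without maltose array 3 the log2 difference was 0.68 and passed (limma adjusted p = 0.0381). MLS1, its close relative and the malate synthase gene of the glyoxylate cycle, rose 9.04-fold (log2 3.18 ± 0.18). Whether MLS1 transcript adds to the dim DAL7 signal by cross-hybridisation was not tested. All 3 measured makers and users of glyoxylate outside the list rose, ICL1 (isocitrate lyase) 4.87-fold and AGX1 (alanine:glyoxylate aminotransferase) 1.84-fold beside MLS1.

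DAL80, the gene of a GATA repressor of the pathway, was close to the floor. Its signals were 16.0, 11.9 and 10.1 on glucose, 1.2, 6.5 and 9.1 on maltose, 12.4, 15.4 and 13.3 on ethanol, and 22.7, 11.8 and 5.6 on acetate. Only 5 of the 12 arrays lay above the floor, 3 of them ethanol arrays. No difference was called (log2 0.18 ± 0.16, limma adjusted p = 0.485). All maltose arrays were under the floor, so no fold against maltose is given, and ethanol was not called different from maltose (limma adjusted p = 0.647).

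Pairs of sources resolved the order of levels only in part. The 8 genes gave 7 calls over the 6 pairs. DUR3, DAL2 and DAL5 were higher on ethanol than on glucose (log2 1.85 ± 0.40, 1.29 ± 0.31 and 1.12 ± 0.26, with limma adjusted p = 0.0213, 0.0365 and 0.032), where 1.66% of all probe sets were called higher. The same genes were higher on ethanol than on maltose (log2 1.53 ± 0.40, 1.75 ± 0.31 and 1.19 ± 0.26, with limma adjusted p = 0.0324, 0.00292 and 0.0134), where 4.24% were called higher. These pairs share the ethanol arrays. For acetate, DAL2 passed against maltose (log2 1.32 ± 0.31, limma adjusted p = 0.0132), with 7.82% of all probe sets called higher.

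Against glucose, limma called 0 of the 8 genes on acetate, where 3.47% of all probe sets were called higher; 5 had an unadjusted p under 0.05, and DUR3 was the nearest to the threshold (log2 1.32 ± 0.40, limma adjusted p = 0.0629). Ethanol and acetate cultures were not called different for any of the 8 genes by limma, with 0 at an unadjusted p under 0.05, and 0.0279% of all probe sets were called in either direction. The log2 difference of ethanol over acetate was 0.52 ± 0.40 for DUR3 (95% interval -0.32 to 1.36), 0.47 ± 0.26 for DAL5 (-0.08 to 1.02), 0.43 ± 0.31 for DAL2 (-0.22 to 1.08) and 0.38 ± 0.29 for DAL3 (-0.23 to 0.98). Maltose and glucose cultures were likewise not called different for any of the genes, with 0 at an unadjusted p under 0.05 and 0.209% of all probe sets called. DUR3 was at 0.32 ± 0.40 (95% interval -0.52 to 1.16) and DAL2 at -0.46 ± 0.31 (-1.11 to 0.19) for maltose over glucose. No call therefore separated a level from the next lower one (ethanol, acetate, then each sugar in turn for DUR3, DAL2, DAL5 and DAL3). For DAL2 the sugar next below acetate was glucose, and its call on acetate was against maltose, the lowest level.

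**Figure D2:**
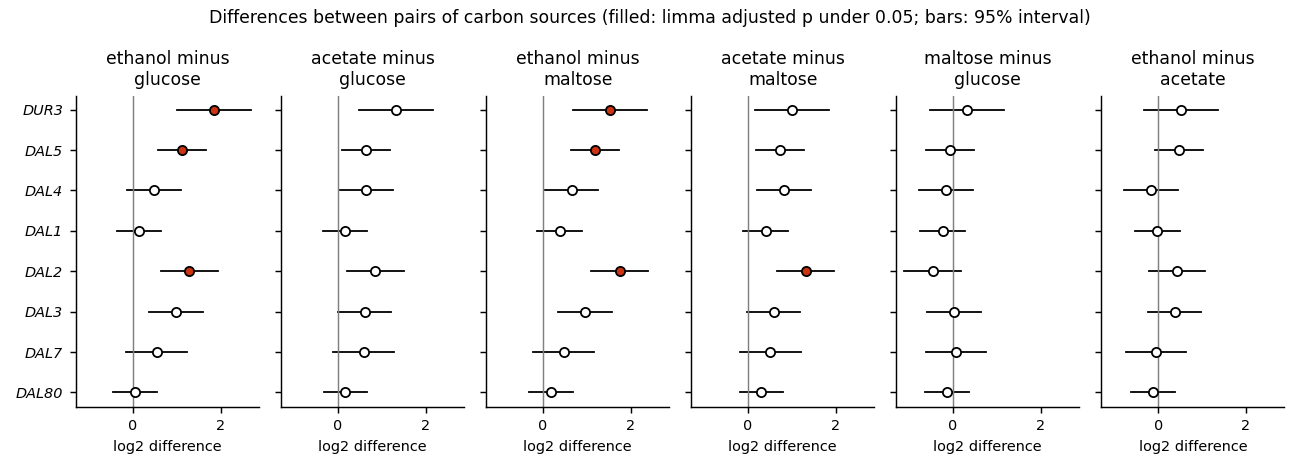
Log2 differences (x axis) of the 8 genes (rows) for each pair of carbon sources (panels), with 95% intervals as bars. Filled points passed at a limma adjusted p under 0.05: 3 genes for ethanol against glucose, 3 for ethanol against maltose, 1 for acetate against maltose and 0 in the other 3 panels.

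Over all 4 sources at once, the moderated F test called 3 of the 8 genes, DAL2, DAL5 and DUR3 (limma adjusted p = 0.00539, 0.0176 and 0.0182), and 8.19% of all probe sets. The pair calls depended on single arrays. Their number was 7 with all arrays, 2 without ethanol array 2, 3 without ethanol array 1 or 3 or without acetate array 2, 4 without glucose array 3, and 14 without maltose array 3. With only the arrays of the groups compared in each fit it was 2.

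Within maltose, acetate and glucose, 1 array stood at the same end for most of the genes, and within ethanol none did. Maltose array 3 was the highest of the maltose arrays for 7 of the 8 genes, the exception being DAL4, while 51.3% of all tested probe sets were highest on that array. Acetate array 3 was the lowest acetate array for 7 of the 8, again with DAL4 as the exception, against 34% of all probe sets. Glucose array 3 was the lowest glucose array for 7 of the 8, against 34.2%, with DAL4 once more the exception. Ethanol arrays 1, 2 and 3 were the highest for 4, 2 and 2 genes and the lowest for 3, 2 and 3. What differs between these cultures or arrays was not tested.

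By the actin control, RNA quality moved with the carbon source, since the arrays with high 3′/5′ ratios were all C2 arrays. The YER148W control also read highest on those arrays, at 7.33 or more. On maltose array 2, however, its ratio was 5.88, which exceeded the 3.64 of ethanol array 1 and the 4.87 of acetate array 1. Array 1 of ethanol and of acetate had low actin ratios, 3.31 and 2.78, and for DUR3, DAL2 and, on ethanol, DAL5 it read highest of its source. DUR3 read 251.0 on ethanol array 1 against 185.0 and 209.1 on the others, and 189.5 on acetate array 1 against 136.4 and 126.4. For DAL3 array 1 was the highest on acetate and the lowest on ethanol, and for DAL4 it was the lowest on ethanol. With array 1 as the only C2 array per source, the log2 differences were 1.72 for DUR3, 1.51 for DAL2, 1.04 for DAL5, 0.96 for DAL3 and 0.52 for DAL4. Apart from DAL4, each was at least as large as with all arrays. With 2 C2 arrays in place of 6 limma called 0 of the 8 genes, and 2.4% of all probe sets were called.

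With a 3′/5′ covariate (log2 ratios of the controls actin and YER148W, averaged) in the model 2 genes were called, DAL2 (log2 1.59, limma adjusted p = 0.021) and DAL5 (log2 1.18, limma adjusted p = 0.0427), and 2.05% of all probe sets. DUR3 was then at log2 1.76 (limma adjusted p = 0.0596), DAL3 at 1.01 and DAL4 at 0.64. A code letter in the array descriptions, whose meaning the labels do not give, was P on all C2 arrays but on only 3 of the sugar arrays, glucose 1 and 3 and maltose 3. Arrays of letter P alone include maltose array 3 as the only maltose array. Among them the log2 differences were 1.19 for DAL2, 1.05 for DUR3, 0.74 for DAL5, 0.54 for DAL3 and 0.48 for DAL4. With all arrays and the letter as a block the differences were the same, and DAL2 and DUR3 were called. DAL5, DAL3 and DAL4 were no longer called (limma adjusted p = 0.0577, 0.157 and 0.284). Under that block 7.92% of all probe sets were called, against 17.1% in the main run. Leaving out glucose arrays 1 and 3 kept glucose array 2 as the only glucose array. The log2 differences were then 1.39 for DAL2, 0.89 for DAL5, 1.15 for DUR3, 0.66 for DAL3 and 0.73 for DAL4.

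**Figure D3:**
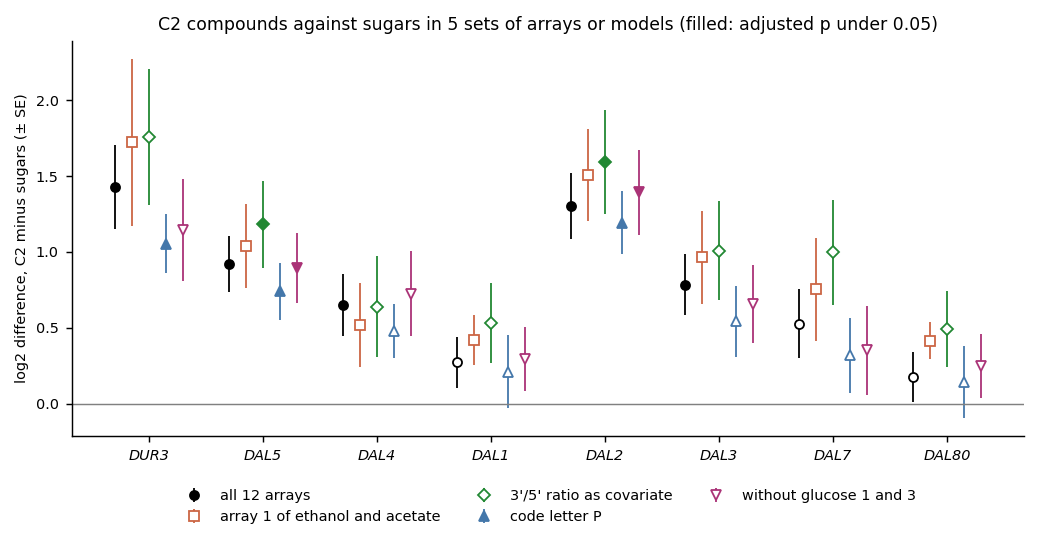
Log2 difference between C2 compounds and sugars (y axis, ± SE) of each gene (x axis) with all 12 arrays, with array 1 as the only ethanol and acetate array, with the 3′/5′ covariate, among arrays of code letter P, and without glucose arrays 1 and 3. Filled markers passed at an adjusted p under 0.05, and every value lies above 0.

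In the reference gene table, DAL1, DAL4, DAL2, DCG1, DAL7 and DAL3 follow one another on 1 chromosome with no other gene between them. In this run 3 of 6 genes rose, DAL4, DAL2 and DAL3, against 11.4% of all tested probe sets called higher. The DAL4 call is the one that ended on leaving out any 1 of 7 arrays. DCG1, a gene of the run that is not on the list and whose product is little characterised, read between 8.2 and 26.7 and was not called (log2 0.45 ± 0.19, limma adjusted p = 0.121). Of 4 flanking genes, taken by position after the values of the run were known, LYS1 rose slightly (log2 0.46 ± 0.14, limma adjusted p = 0.0294). LYS1 encodes saccharopine dehydrogenase of lysine synthesis. The other flanking genes had no call. MND2 was at log2 0.49 ± 0.27, MGA2 at 0.50 ± 0.26, and YVH1, next to DAL1, at -0.45 ± 0.25.

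**Figure D4:**
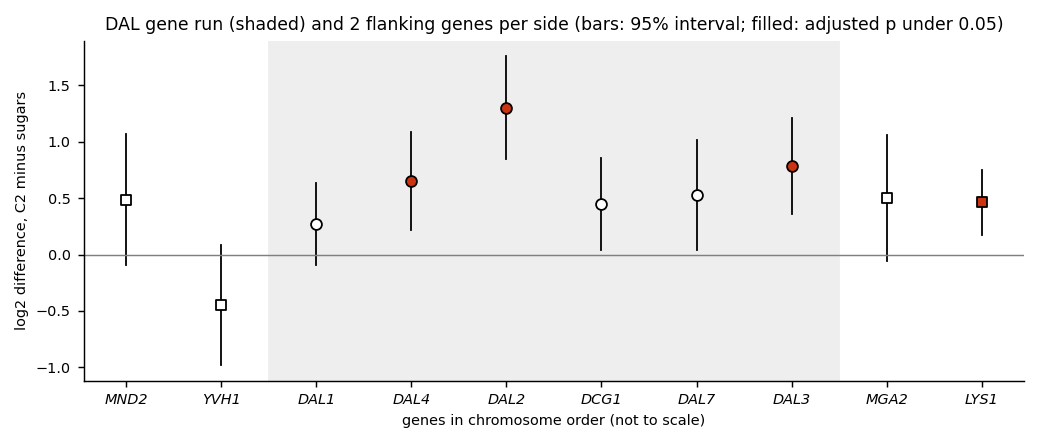
Log2 difference between C2 compounds and sugars (y axis, bars 95% intervals) of the 6 consecutive genes of the run, DCG1 among them (shaded, circles), and 2 genes on either side (squares), in chromosome order along the x axis, not to scale. DAL4, DAL2, DAL3 and LYS1 are filled, having passed at an adjusted p under 0.05.

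Calls went in both directions among other genes taken here as being under nitrogen catabolite repression. Whether each of them is repressed in that way in these cultures was not tested. Among 18 such genes outside the list, 4 rose and 2 fell in the contrast of both C2 sources with both sugars. In that contrast 11.4% of all tested probe sets were called higher and 5.69% lower. The list's median log2 difference was 0.21, against 0.12 over all tested probe sets. MEP2, the high-affinity ammonium permease gene, rose 2.60-fold (log2 1.38 ± 0.30, limma adjusted p = 0.00588). By pairs, MEP2 was called on ethanol against maltose (limma adjusted p = 0.0135). Against glucose it was not called on ethanol (limma adjusted p = 0.0734) or on acetate (limma adjusted p = 0.294). Its groups overlapped, with acetate array 3 at 402.6 and glucose array 2 at 663.4. MEP1, another ammonium permease gene, rose 1.40-fold. Against glucose, MEP1 was called on ethanol (log2 0.82 ± 0.19, limma adjusted p = 0.0367) and not on acetate (log2 0.20 ± 0.19, limma adjusted p = 0.623). UGA4, the GABA permease gene, rose 1.71-fold on its brightest probe set (log2 0.77 ± 0.21) and had no call on another (log2 -0.16 ± 0.19). That brightest probe set was itself dim, partly under the floor of 12, at 9.9, 16.1 and 9.3 on glucose and 18.6, 5.2 and 18.7 on maltose. VID30, the gene of a ubiquitin ligase subunit, rose 1.70-fold (limma adjusted p = 0.0487).

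The genes that fell encode catabolic enzymes for other nitrogen compounds. CAR2, the ornithine transaminase gene of arginine use, fell 1.79-fold (log2 -0.84 ± 0.20). Against glucose, CAR2 was called lower on acetate (log2 -1.36 ± 0.28, limma adjusted p = 0.00955) and not on ethanol (log2 -0.35 ± 0.28, limma adjusted p = 0.583). UGA2, a gene of GABA use, fell 2.04-fold on its brightest probe set (log2 -1.03 ± 0.29), and its other probe set had the opposite sign without a call (log2 0.54 ± 0.30). GAP1, the general amino acid permease gene, showed no call (log2 -0.05 ± 0.21, 95% interval -0.49 to 0.40, limma adjusted p = 0.905). Nor did CAR1, the arginase gene, whose product releases urea inside the cell (log2 -0.08 ± 0.16, limma adjusted p = 0.756).

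None of the 6 regulator genes was called by limma between C2 compounds and sugars, and 2 had an unadjusted p under 0.05. In that contrast 17.1% of all tested probe sets were called in either direction. GAT1, a GATA activator gene, was at log2 0.50 ± 0.17 (limma adjusted p = 0.0539) and URE2, the gene of the cytoplasmic anchor, at log2 -0.44 ± 0.19 (limma adjusted p = 0.124). GLN3, the other activator gene, was at -0.12 ± 0.22, and GZF3, the repressor gene related to DAL80, at 0.32 ± 0.28. The median over the 6 regulators was log2 0.13. Among the 4 sequence relatives of listed genes (MLS1, GZF3, FUR4 and FUI1) MLS1 alone was called. Lists of 6 and 4 genes are too short for either count to be set apart from that share.

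**Figure D5:**
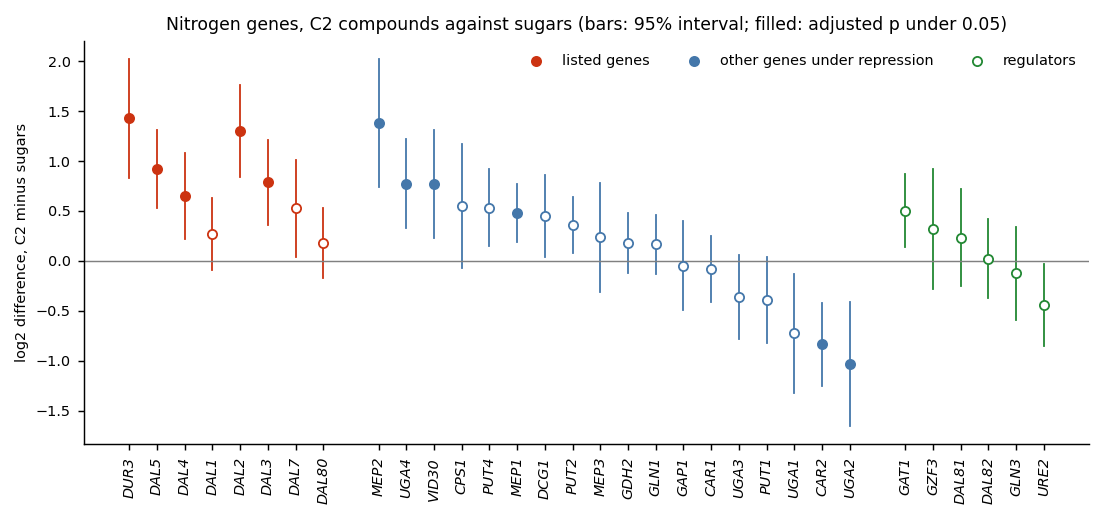
Log2 difference between C2 compounds and sugars (y axis, bars 95% intervals) of the 8 listed genes, 18 other genes taken as under nitrogen catabolite repression and 6 regulator genes (x axis). Filled points passed at an adjusted p under 0.05: 5 listed genes, 4 others up and 2 down, and 0 regulators.

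The genes whose log2 signals tracked each listed gene best over the 12 arrays were named by Pearson's r, as a description in which the division into sugar and C2 cultures carries part of every value. For DAL3 the nearest gene was MEP2 (r = 0.92), followed by the dim EST1 and BPL1. For DUR3 the nearest were AVT3, a vacuolar amino acid exporter gene (r = 0.938), TPN1, a vitamin B6 transporter gene (r = 0.918), and PMP1 (r = 0.916). DAL2 lay nearest to TRM13, a tRNA methyltransferase gene (r = 0.971), GDH3, a glutamate dehydrogenase gene (r = 0.955), and SFC1, the mitochondrial succinate-fumarate carrier gene (r = 0.932). DAL5 also lay nearest to TRM13 (r = 0.933), then to SDH2, a succinate dehydrogenase gene (r = 0.928), and PYC1, a pyruvate carboxylase gene (r = 0.918). The dim genes DAL1, DAL4, DAL7 and DAL80 had LAM4 (r = 0.887), YNL146C-A (r = 0.957), GAL11 (r = 0.882) and ARP10 (r = 0.858) as their nearest.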

How the data were processed

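The authors deposited linear intensities, called signals here, already scaled to equal 2% trimmed means. MAS5 made those of the maltose, ethanol and acetate arrays, per the submitters' processing notes; for the glucose arrays software was not given in the sources used here. After a rescaling that made those means identical, a floor of 12 was set and log2 taken; 60 control probe sets were left out, as were 2099 not above 12 on at least 3 arrays. Platform annotation gave 1 gene for 6504 probe sets, several for 328 and none for 2443. For a gene with several probe sets the one with the highest mean signal stood for it. The model had 1 mean per source and was fitted with limma 3.58.1 (lmFit and contrasts.fit, then eBayes, its trend option on) under R 4.3.3; the steps were tested on simulated data. Spread between cultures of one source is what the p-values measure. All listed genes are named; the fixed lists of regulators, repressed genes, glyoxylate genes and relatives give counts, up to 4 called genes or 2 values each, and a few genes always named; likeness gives up to 3 genes per listed gene. Members and lists were chosen with earlier results of these data known. Arrays have no read depth, and their number and brightness limit the precision. Alternatives covered floor, normalization, filter, variance model, array weights, blocks, RNA quality and left-out arrays. No sequence or genome build was used.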

Additional observations from a re-analysis of the deposited data

How the results depend on the processing

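For each of the 8 genes the log2 difference between C2 compounds and sugars stayed positive in every alternative run that tested it. A floor of 50 left 4 of the genes tested, and a mean signal of at least 100 left 3. The number of genes called in that contrast was 5 with all arrays and 4 to 6 on leaving out 1 array. It was 3 when probe sets under a mean of 100 were dropped, which keeps 3 of the genes, 3 among arrays of code letter P, 2 with the 3′/5′ covariate, 2 with the letter as a block, 2 without glucose arrays 1 and 3, and 0 when array 1 was the only ethanol and acetate array. The F test called 3 genes, 2 to 4 on leaving out 1 array, 6 with array weights (which called 47% of all probe sets), 1 with the covariate, 1 with the letter as a block, 1 without glucose arrays 1 and 3, and 0 when array 1 was the only C2 array per source. Calls over the 6 pairs numbered 7, with 2 to 14 on leaving out 1 array, 19 with array weights, 3 with the covariate, 3 with the letter as a block, 4 without glucose arrays 1 and 3, 0 with array 1 alone, and 2 with only the arrays compared. The cause of these changes in the counts was not tested. Runs that left 1 array in a source have no spread within that source, so their counts are not comparable with the main run. Leaving out maltose arrays 2 and 3, chosen after seeing the data, gave 4, 3 and 10. Quantile normalization moved the median over all probe sets from log2 0.12 to 0.01; relative to these medians DUR3 stood at 1.31 and 1.32, DAL2 at 1.18 and 1.11. Arrays share replicate numbers between sources, and the labels tie no number to a shared batch or day. Same-numbered arrays had deviations correlated above 0.1 in 6 of 18 pairs (r from -0.21 to 0.53), short of all pairs, so the numbers were not taken as pairs, although 8 of 12 arrays correlated best with their own number, a hint of shared numbers. With the replicate block the counts were 5, 3 and 7, as without it. The share of all tested probe sets called in the contrast of C2 compounds with sugars also moved with the setting. It was 17.1% in the main run, 7.92% with the letter as a block and 2.05% with the covariate. Among probe sets with a mean of at least 100 it was 24.2%. For the F test the share was 8.19% in the main run, 4.17% with the letter as a block and 2.05% with the covariate. Signals near the floor limit what can be seen of DAL1, DAL4, DAL7 and DAL80, and of UGA4 outside the list.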
